A study of Mus musculus with 12 samples.

Results

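Cells labelled preadipocyte were compared with cells labelled progenitor, both taken by flow sorting from newborn mouse aorta with its surrounding fat. The 6 libraries were taken by their labels alone, 3 per population, from the 12 libraries of the series, and no gene was left out other than for low counts. Both populations came from CD-1 mice, an outbred stock, aged 3 days, with males and females mixed. The vessels were minced together with their fat, digested with collagenase D and dispase II, and sorted by gates that the labels do not give, so that a difference in a surface marker may have been set in part by the sort. Trizol LS was used to extract RNA, and cDNA was made from poly(A) RNA with a SMART-Seq v4 kit for very small inputs. The labels state no transgene, deletion or treatment in either population. Whether the 3 libraries of a population came from different litters or different sorts is not stated, and a p-value here therefore reflects only how far these libraries spread, which may be technical.

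Fat cells arise from fibroblast-like progenitors which, in the outer vessel wall, carry Pdgfra, Cd34, Ly6a and Pi16. Cells that commit to the fat lineage switch on Pparg and Cebpa, transcription factors that in turn activate genes of lipid uptake, triglyceride storage and fat breakdown. The fat around the mouse aorta is known for features of brown fat, in which cells fill with mitochondria and burn lipid through the uncoupling protein Ucp1. Progenitors, like other fibroblasts, are known for secreting collagens, elastic fibre proteins, proteases and signalling proteins.

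Of 17005 genes with enough counts to be tested, 4635 (27.3%) were higher and 4979 (29.3%) lower in preadipocyte than in progenitor libraries, 9614 (56.5%) in all, by edgeR's quasi-likelihood test at a Benjamini-Hochberg adjusted p under 0.05. These shares are the background against which every count below is to be read. Over all genes tested, the median log2 fold change was -0.03, and 11017 genes (64.8%) did not overlap between the 3 libraries of each population. At least 2-fold differences were called for 2972 genes that were higher and 3436 that were lower, and at least 8-fold differences for 367 and 360 genes. Of 13866 protein-coding genes tested, 3909 were higher and 4337 lower, whereas of 400 long intergenic non-coding RNAs 52 were higher and 131 lower. Levels are given as CPM, counts scaled to a common library total after TMM normalisation, and fold changes as log2 of preadipocyte over progenitor with their SE. Exons of Cd34, Dpp4, Pdgfra, Hhip, Lipe, Adrb3, Prdm16, Cebpa, Cebpd, Cox5a, Hspd1, Thbs3, Wnt5a, Cdkn1c, Cdc20 and others named here overlap other annotated genes, and because the sources used here do not say whether strand was used in counting, their counts are uncertain to that extent. The split of calls depends on the scaling. With library size alone, which moved the median of all genes to 0.38, 6939 genes were higher and 3310 lower. The plot of gene lists shows the lists described below on a single scale.

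**Figure D1:**
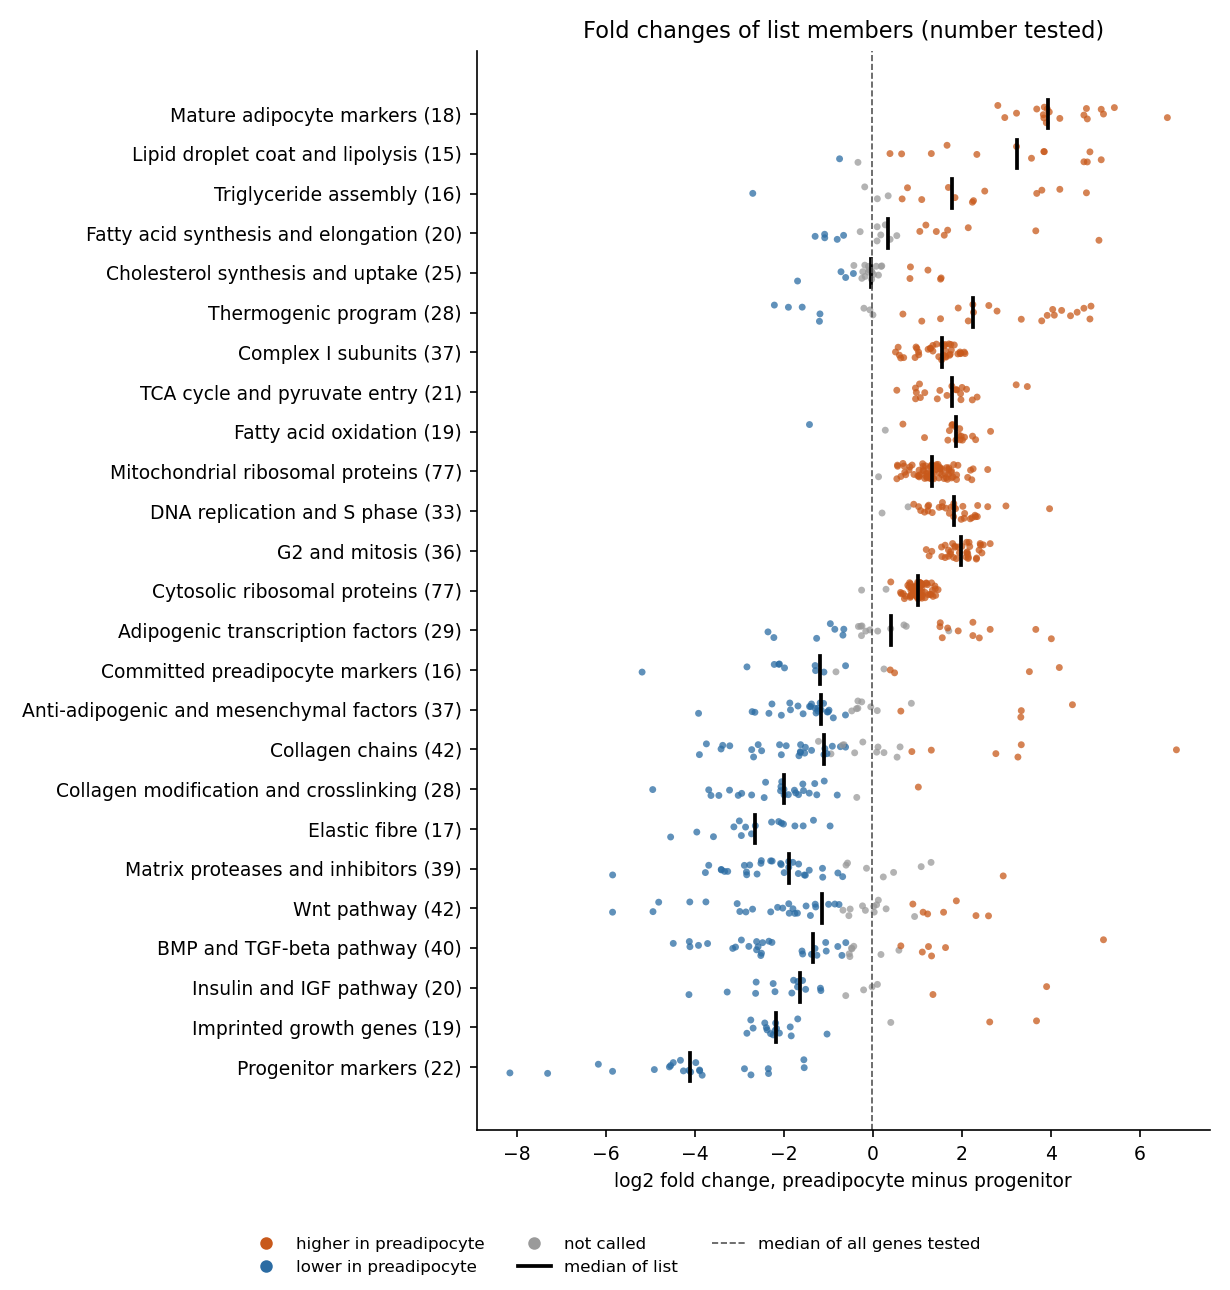
Log2 fold change (preadipocyte minus progenitor, horizontal axis) of every tested member of 25 gene lists, with the number tested in brackets. Each point is a gene, coloured by its call, black bars are list medians and the dashed line is the median of all genes tested. All 18 mature adipocyte markers lie to the right of 0 and all 22 progenitor markers to the left, while members of cholesterol synthesis gather around 0.

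Libraries held 15148249 to 15739798 counts in preadipocyte and 14778738 to 17123109 in progenitor samples, and TMM factors were 1.13 to 1.19 in preadipocyte and 0.856 to 0.883 in progenitor libraries. The 20 most abundant genes took 8.78% to 11.1% of counts in preadipocyte and 23.4% to 24.2% in progenitor libraries. Transcripts of the mitochondrial genome took 2.56% to 3.43% of counts in preadipocyte and 0.841% to 0.910% in progenitor libraries. Preadipocyte replicate 3 stood apart. Of 8325 genes with a mean log2 CPM of at least 4, it held 105 at more than 3 times the level of both other preadipocyte libraries, against 10 in replicate 1 and 3 in replicate 2. Haemoglobin genes took 1.84% of its counts, against 0.114% in preadipocyte replicate 1, 0.129% in replicate 2, and 0.00803% to 0.0253% in progenitor libraries. Without this library 4918 genes were higher and 5032 lower. Preadipocyte replicate 1 differed in other ways. The gene Lars2 took 1.42% of its counts, against 0.1719% to 0.3755% in the other libraries. The predicted gene Gm23935 took 0.615%, against 0.0459% to 0.1126%, and protein-coding genes 95.4%, against 96.5% to 97.9%. Without preadipocyte replicate 1, 4655 genes were higher and 4742 lower. Progenitor replicate 1 held 15 of the same 8325 genes at a level more than 3 times below that of both other progenitor libraries.

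Markers of other cell types moved with the comparison, and their part in the results below was not tested. Red blood cell markers were higher in preadipocyte libraries for 9 of 10 genes tested, and summed to 1200 to 20700 CPM by library size alone in preadipocyte libraries, against 86.8 to 261 CPM in progenitor libraries. The list's median log2 fold change was 6.02, and 2.87 without preadipocyte replicate 3. Schwann and neuronal markers were higher for 10 of 11 and lower for 1, with sums of 168 to 216 CPM in preadipocyte and 23.9 to 29.6 CPM in progenitor libraries. Th and Dbh, enzymes of noradrenaline synthesis in sympathetic neurons, averaged 13.7 and 19.1 CPM in preadipocyte libraries and 0.329 and 0.373 CPM in progenitor libraries. The pan-neuronal gene Stmn2 was at 44.8, 32.4 and 29 CPM in preadipocyte libraries, against 0.8715, 0.8955 and 1.13 CPM in progenitor libraries. Endothelial markers were higher for 11 of 15 and lower for 1, and their sums overlapped, at 117 to 320 CPM in preadipocyte and 124 to 143 CPM in progenitor libraries. Tek, an angiopoietin receptor, was the endothelial gene that was lower (log2 fold change -2.92 ± 0.29), while Cldn5, a tight junction protein of vessels, was higher (4.93 ± 0.48). Heart and skeletal muscle markers were tested for 6 of 16 genes, of which 3 were higher and 1, Tnnt3, lower, with sums of 66.3 to 138 CPM in preadipocyte and 13.7 to 17.4 CPM in progenitor libraries. The heart myosin Myh6 averaged 29.8 CPM in preadipocyte and 1.24 CPM in progenitor libraries. The muscle stem cell gene Pax7 had no count in any progenitor library, which allows up to 0.175 to 0.203 CPM in each. It had 5, 0 and 3 counts in preadipocyte replicates 1 to 3, too few to be tested. Mural and smooth muscle markers split into 5 higher and 5 lower of 13, with sums of 251 to 411 CPM in preadipocyte and 409 to 451 CPM in progenitor libraries. White blood cell markers held 32 to 62 CPM in preadipocyte and 44.3 to 54.6 CPM in progenitor libraries, with 1 higher and 2 lower (4 without preadipocyte replicate 1) of 10. Mesothelial markers held 33.1 to 95 CPM in preadipocyte and 109 to 236 CPM in progenitor libraries, with none higher and 8 of 12 lower (3 without progenitor replicate 3). Apart from Pax7, every marker on these 7 lists had at least 1 count in both populations.

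**Figure D2:**
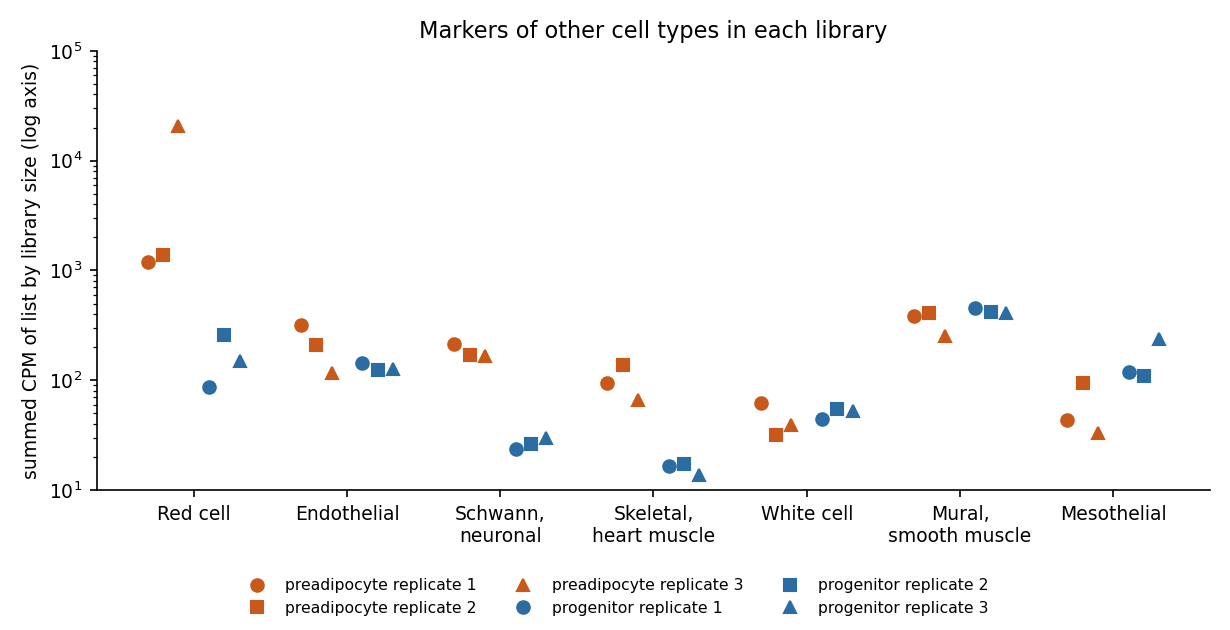
Summed level of 7 lists of markers of other cell types in each of the 6 libraries, in CPM by library size alone on a log axis. Circles, squares and triangles are replicates 1, 2 and 3. Red cell markers reach 20700 CPM in preadipocyte replicate 3, and the sums of neuronal and of muscle markers do not overlap between the populations.

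The labels were set beside lists of marker genes. These lists were chosen with earlier results of these data known, and the sort may have set some surface markers. The counts are therefore a description and no independent check of the labels. All 22 progenitor markers tested were lower in preadipocyte libraries, with a median log2 fold change of -4.11. Cd34, a surface sialomucin of progenitors, was at 79.25, 94.1 and 65.2 CPM in preadipocyte libraries, against 1259, 1191 and 1085 CPM in progenitor libraries. Scara5, a ferritin receptor of fibroblast-like progenitors, was at 33.7, 49.8 and 37.5 CPM in preadipocyte libraries, against 789, 787 and 735 CPM in progenitor libraries. For both genes the lowest progenitor library was far above the highest preadipocyte library, and their log2 fold changes were -3.89 ± 0.18 (edgeR adjusted p = 8.01e-07) and -4.25 ± 0.18 (adjusted p = 7.10e-07). Dpp4, a protease of the progenitor surface, averaged 3.95 ± 1.38 CPM in preadipocyte and 93.7 ± 3.94 CPM in progenitor libraries (SD, n = 3). Pdgfra was lower by less (log2 fold change -2.34 ± 0.16). It was still at 112, 116 and 83.5 CPM in the 3 preadipocyte libraries, against 574, 495 and 512 CPM in progenitor libraries.

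Markers of committed preadipocytes did not set the preadipocyte libraries above the progenitor libraries as a list. Of 16 such genes, 4 were higher and 10 lower, with a median of -1.19. The count of higher genes was 2 without preadipocyte replicate 1 and 5 without replicate 3. Fabp4 and Cd36, which carry fatty acids in the cell and across its membrane, were higher. F3, the tissue factor gene, was at 98.3, 94.9 and 94 CPM in preadipocyte libraries, against 405.55, 394 and 440.4 CPM in progenitor libraries, and Gpc3, a cell surface proteoglycan, averaged 616 ± 90.4 CPM in preadipocyte and 4369 ± 45.55 CPM in progenitor libraries (SD, n = 3). Dlk1, the classical preadipocyte factor, was at 700.3, 474 and 425 CPM in preadipocyte libraries, against 2258, 2171.5 and 2424 CPM in progenitor libraries, so that all 3 progenitor libraries were above all 3 preadipocyte libraries (log2 fold change -2.10 ± 0.20, edgeR adjusted p = 2.82e-05). By contrast, all 18 mature adipocyte markers tested were higher, with a median of 3.94, or 4.17 without preadipocyte replicate 3. The data went against the name preadipocyte as far as the first of these lists goes, and the libraries are called preadipocyte below only as labelled. In sorted bulk RNA, a larger share of such cells and more of their RNA per cell cannot be told apart.

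The genes that fell furthest in preadipocyte libraries were led by surface proteins. Ly6a, which encodes Sca-1, was at 4.49, 1.02 and 2.35 CPM in preadipocyte libraries, against 769, 853 and 636 CPM in progenitor libraries. The related Ly6c1, which can share reads with its near-identical neighbour Ly6c2, was at 2.14, 0.794 and 1.12 CPM in preadipocyte libraries, against 219, 238 and 192 CPM in progenitor libraries. The lowest progenitor library was 142 times the highest preadipocyte library for Ly6a and 89.7 times for Ly6c1, and the log2 fold changes were -8.15 ± 0.46 (edgeR adjusted p = 1.93e-06) and -7.31 ± 0.32 (adjusted p = 7.42e-07). The other 8 of the 10 largest decreases were Hhip, Pi16, Cmah, Tspan11, Tmem100, Fmo2, Ahnak2 and Adgrd1, with log2 fold changes between -4.95 for Adgrd1, an adhesion G protein-coupled receptor, and -6.49 for Hhip. Cmah, the enzyme that hydroxylates sialic acid, averaged 1.09 ± 0.209 CPM in preadipocyte and 63.7 ± 14.8 CPM in progenitor libraries. Tmem100, a membrane protein, was at 5.4, 6.46 and 6.59 CPM in preadipocyte libraries, against 254.5, 248 and 209 CPM in progenitor libraries.

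The 10 largest increases by fitted fold change included Cldn13, Car1, Ctse, Hemgn, Slc4a1, Kel, Gfi1b, Rhag and Klf1, genes of red blood cells and their precursors. All of these were highest in preadipocyte replicate 3, and limma-voom called none of them (adjusted p = 0.0581 to 0.155). Slc4a1, the anion exchanger of the red cell membrane, was at 17.1, 20.75 and 737 CPM in preadipocyte libraries, against 0.158, 0.0689 and 0.597 CPM in progenitor libraries. When genes were ranked instead by the lowest preadipocyte over the highest progenitor library, a ranking added after the data had been seen, the first 10 also held Cfd, Stmn2, Acvr1c and Thrsp, and Car2, a carbonic anhydrase. Cfd, which encodes the secreted protease adipsin, was at 47.6, 77.55 and 57.4 CPM in preadipocyte libraries, against 0.396, 0.413 and 0.9945 CPM in progenitor libraries. Acvr1c encodes ALK7, a receptor of the activin family found on fat cells, and was at 28.6, 38.8 and 25.8 CPM in preadipocyte libraries, against 0.555, 1.17 and 0.796 CPM in progenitor libraries. Thrsp, a lipogenic nuclear protein, was at 95.3, 134 and 78.1 CPM in preadipocyte libraries, against 1.82, 3.93 and 3.25 CPM in progenitor libraries. In these 3 genes the preadipocyte libraries agreed within a factor of 2 and none was near a progenitor library.

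Genes of triglyceride assembly and of the lipid droplet were mostly higher. Of 16 genes of triglyceride assembly 12 were higher and 1 lower (median 1.77), and of 15 genes of the droplet coat and lipolysis 13 were higher and 1 lower (median 3.23). Genes of glycerol supply were among those that were higher. Gpd1, which makes glycerol phosphate from a glycolytic intermediate, was at 549, 894.55 and 371 CPM in preadipocyte libraries, against 37.8, 39.7 and 21.2 CPM in progenitor libraries. Pck1, the entry enzyme of glyceroneogenesis, averaged 82.3 ± 31.4 CPM in preadipocyte and 2.95 ± 0.39 CPM in progenitor libraries (SD, n = 3), and Aqp7, a glycerol channel, 93.5 ± 30.7 CPM in preadipocyte and 7.28 ± 1.87 CPM in progenitor libraries. Dgat2, which adds the last acyl chain, was higher by 2.51 ± 0.26 on the log2 scale. Among the lipins, phosphatidate phosphatases of the same step, Lpin1 was higher (log2 fold change 1.85 ± 0.17), Lpin3 was lower (-2.70 ± 0.24) and Lpin2 was not called (-0.18 ± 0.27, edgeR adjusted p = 0.5955). Per length, Lpin1 made up 56.5% ± 10.3 of the 3 lipin transcripts in preadipocyte and 14.9% ± 1.08 in progenitor libraries, and Lpin3 7.41% ± 2.77 in preadipocyte and 45% ± 2.86 in progenitor libraries (mean ± SD, n = 3).

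Coat proteins of the droplet moved apart. Plin1, which guards large droplets of fat cells, was at 266, 356 and 171 CPM in preadipocyte libraries, against 17.75, 21.4 and 15.7 CPM in progenitor libraries. Plin5, the coat protein that tethers droplets to mitochondria, averaged 27.5 ± 7.61 CPM in preadipocyte and 0.933 ± 0.16 CPM in progenitor libraries. Plin3, found in most cell types, was lower instead, at 125, 136 and 98.9 CPM in preadipocyte libraries, against 212, 204.45 and 187 CPM in progenitor libraries (log2 fold change -0.75 ± 0.15, edgeR adjusted p = 0.00232, and -0.34 with adjusted p = 0.0778 for library size alone). Per length, Plin3 made up 16%, 15.3% and 17.1% of the 5 perilipin transcripts in preadipocyte replicates 1 to 3, where Plin2 and Plin1 averaged 45% ± 4.09 and 28.2% ± 4.22, and 64.5%, 61.1% and 61% in progenitor replicates 1 to 3. Both lipases that start fat breakdown were higher. Pnpla2, the triglyceride lipase, was at 353.5, 457 and 246 CPM in preadipocyte libraries, against 40.25, 40.4 and 32 CPM in progenitor libraries. Lipe, the hormone-sensitive lipase, was at 173, 166 and 83.8 CPM in preadipocyte libraries, against 11, 9.09 and 9.415 CPM in progenitor libraries. In Plin1, Plin5, Pnpla2 and Lipe every preadipocyte library was above every progenitor library. G0s2, an inhibitor of Pnpla2, was higher as well (log2 fold change 3.57 ± 0.21), and Hilpda, another inhibitor of it, was not called (-0.33 ± 0.15, edgeR adjusted p = 0.0769).

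Genes of fatty acid synthesis and elongation were mixed. Of 20 genes tested, 8 were higher, 5 lower and 7 not called (median 0.34). The lipogenic transcription factors Mlxipl, which encodes ChREBP, and Srebf1 were higher by 3.66 ± 0.35 and 1.68 ± 0.22 on the log2 scale. Hsd17b12, a reductase of the elongation cycle, Slc25a1, which carries citrate out of mitochondria, and Acacb, the acetyl-CoA carboxylase at the mitochondrial surface, were higher too, by 1.19 ± 0.15, 1.06 ± 0.20 and 1.43 ± 0.32 on the log2 scale. Acly, Fasn and Acaca were not called. Acly, which makes cytosolic acetyl-CoA, averaged 307 ± 68.9 CPM in preadipocyte and 287 ± 18.3 CPM in progenitor libraries (edgeR adjusted p = 0.641). Fasn, the fatty acid synthase, was at 205, 159.9 and 131 CPM in preadipocyte libraries, against 166.5, 134 and 163 CPM in progenitor libraries. The 2 populations overlapped in it, and the log2 fold change was 0.10 ± 0.18 (edgeR adjusted p = 0.672). Acaca, the cytosolic acetyl-CoA carboxylase, had a log2 fold change of 0.54 ± 0.21 and missed the threshold (edgeR adjusted p = 0.05665), although its libraries did not overlap. With library size alone these 3 were called higher, at log2 fold changes of 0.50 for Acly, 0.51 for Fasn and 0.96 for Acaca (edgeR adjusted p = 0.0235, 0.0444 and 0.00589). Acaca was also called higher with median-ratio size factors (edgeR adjusted p = 0.043), DESeq2 (adjusted p = 0.0268), a minimum of 5 CPM and protein-coding genes only. The fit of all 12 libraries and the fit without preadipocyte replicate 3 called it as well. It was not called by limma-voom, without the low-count filter, with a replicate block or in the other fits that left out 1 library. Desaturases of polyunsaturated fat, Fads1 and Fads2, were lower (log2 fold changes -1.08 ± 0.16 and -1.08 ± 0.16), as was Scd2 at 155, 208.5 and 134 CPM in preadipocyte libraries, against 435, 394 and 392 CPM in progenitor libraries. Scd1, the stearoyl-CoA desaturase of fat and liver, was at 62.85, 259.8 and 48.55 CPM in preadipocyte libraries, against 41.3, 49.05 and 31.7 CPM in progenitor libraries, and preadipocyte replicate 2 alone held most of the difference.

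Uptake and carriage of fatty acids were also mixed, with 8 higher, 4 lower and 5 not called of 17. Fabp5 and the acyl-CoA synthetase Acsl1 were higher by 2.33 ± 0.15 and 3.78 ± 0.26 on the log2 scale. Lpl, the lipoprotein lipase, was already high in progenitor libraries: it was at 1974, 2336 and 1681 CPM in preadipocyte libraries, against 1576, 1462 and 1528 CPM in progenitor libraries (log2 fold change 0.39 ± 0.15, edgeR adjusted p = 0.0497, a call that ended without preadipocyte replicate 1, with adjusted p = 0.0764). The lipoprotein receptors Vldlr and Lrp1 were lower, with log2 fold changes of -2.15 ± 0.15 and -2.12 ± 0.19. Of 25 genes of cholesterol synthesis and uptake, 5 were higher, 4 lower (2 without progenitor replicate 1) and 16 not called (median -0.04). Acat2, which joins acetyl-CoA units at the start of the route, was higher by 1.54 ± 0.19 on the log2 scale. With library size alone 10 of the 25 were called higher.

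**Figure D3:**
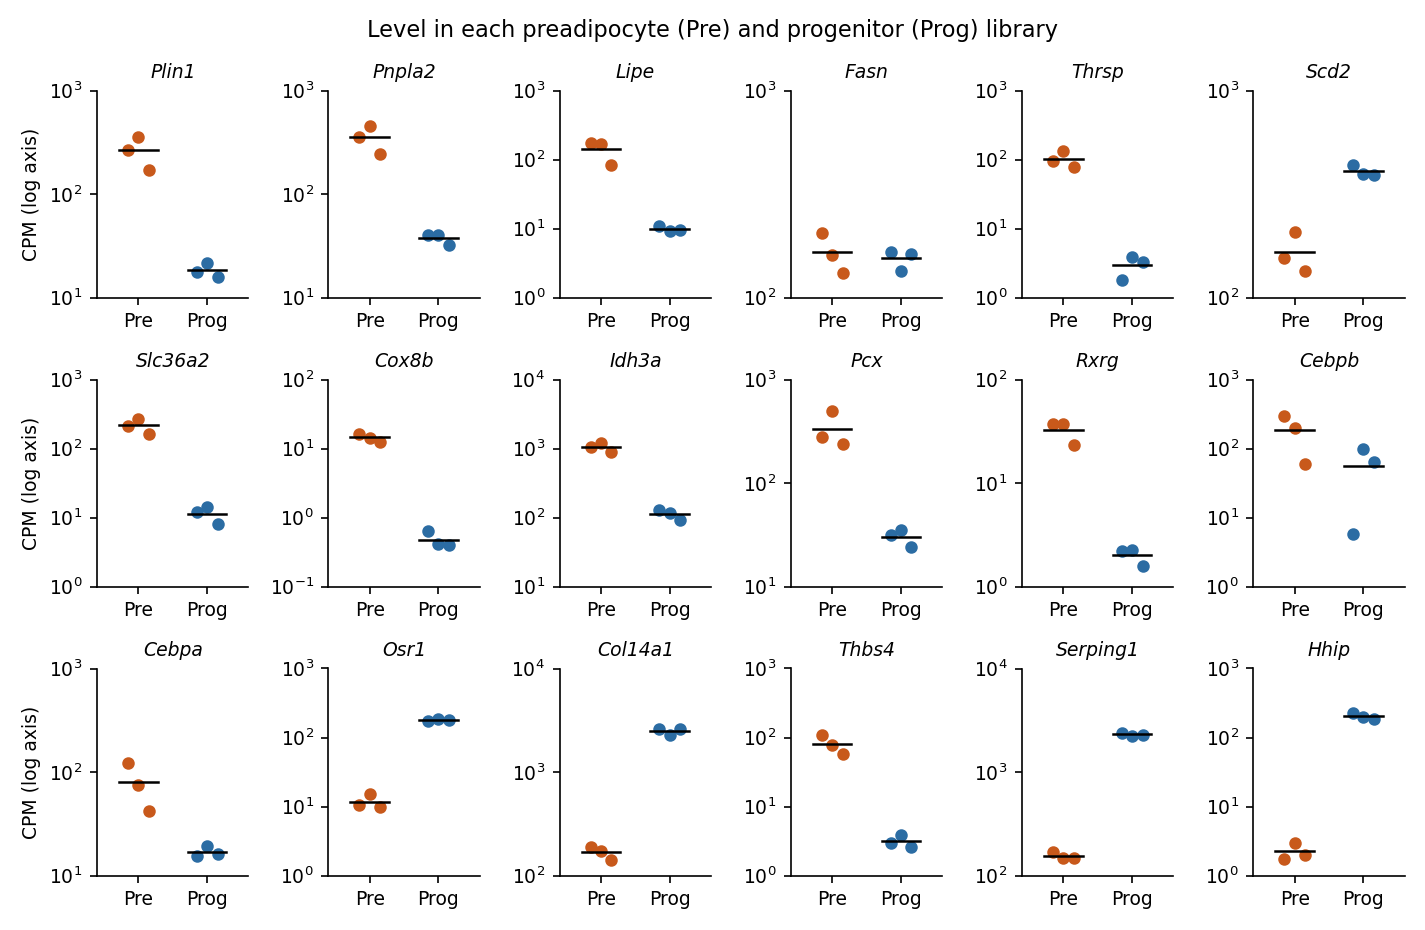
Level in CPM (log axis) of 18 genes in each preadipocyte (Pre, left) and progenitor (Prog, right) library. Points are libraries and bars their means. Fasn and Cebpb overlap between the populations, whereas the other 16 genes do not.

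Of 19 genes listed as adipokines or other proteins secreted by fat cells, 12 were higher, 2 lower and 5 not called (median 0.76). The call of Apoe, 1 of those that were higher, ended without the low-count filter (edgeR adjusted p = 0.0504). It also ended in all fits that left out 1 library, except the fit without preadipocyte replicate 3. Retn, the resistin gene, was at 27.3, 31.9 and 22.3 CPM in preadipocyte libraries, against 1.505, 1.93 and 1.99 CPM in progenitor libraries. Nnat, an imprinted gene, is on the list although it encodes a membrane proteolipid. It was at 334.5, 344 and 205 CPM in preadipocyte libraries, against 24.2, 25.4 and 19.4 CPM in progenitor libraries. Nampt, an enzyme of NAD synthesis that is also secreted, was higher by 1.51 ± 0.13 on the log2 scale. Rarres2, which encodes chemerin, and the lipid transfer protein Pltp were lower, with log2 fold changes of -1.47 ± 0.17 and -3.68 ± 0.23. Lep, the leptin gene, was near the limit of detection: it was at 2.35, 7.43 and 3.35 CPM in preadipocyte libraries, against 0, 0 and 0.265 CPM in progenitor libraries. Rbp4, Vegfa, Apln, Saa3 and Fgf21 were not called, and Vegfa, the main growth factor of vessels, averaged 162 ± 29.35 CPM in preadipocyte and 213 ± 11.9 CPM in progenitor libraries.

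Receptors that control fat breakdown differed one by one, with 9 higher, 7 lower and 5 not called of 21. Adrb3, the adrenergic receptor of fat cells, was at 36.3, 56.8 and 45.5 CPM in preadipocyte libraries, against 3.41, 3.17 and 2.59 CPM in progenitor libraries. Hcar2 and Hcar1, receptors for ketone bodies and lactate that restrain lipolysis, were higher by 3.34 ± 0.29 and 2.90 ± 0.29 on the log2 scale. Ffar4, a receptor for long-chain fatty acids, averaged 15.2 ± 4.25 CPM in preadipocyte and 1.67 ± 0.24 CPM in progenitor libraries. Ednra, the endothelin receptor of vessel wall cells, was lower, at 18.2, 23.6 and 20.8 CPM in preadipocyte libraries, against 109, 89.8 and 105 CPM in progenitor libraries. Adora2b, an adenosine receptor, and Npr2, a natriuretic peptide receptor, were lower as well (log2 fold changes -2.35 ± 0.24 and -1.44 ± 0.20).

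The thermogenic program was higher in 20 of 28 genes tested and lower in 5 (median 2.26). Ucp1 was at 143, 126.5 and 81.9 CPM in preadipocyte libraries, against 6.58, 6.06 and 3.58 CPM in progenitor libraries. Slc36a2, an amino acid transporter of the brown fat cell surface, was at 212, 272 and 164 CPM in preadipocyte libraries, against 12, 14.3 and 8.02 CPM in progenitor libraries. For both, every preadipocyte library exceeded every progenitor library by more than 8-fold. Their log2 fold changes were 4.44 ± 0.30 (edgeR adjusted p = 4.11e-06) and 4.24 ± 0.27 (adjusted p = 3.39e-06). Ppargc1a, a coactivator that drives mitochondrial genes, and Prdm16, a regulator of brown fat identity, were higher by 3.79 ± 0.27 and 2.25 ± 0.35 on the log2 scale. Ebf2, another brown fat regulator, was not called, at 322, 346 and 229.9 CPM in preadipocyte libraries, against 333.45, 284 and 322 CPM in progenitor libraries (edgeR adjusted p = 0.758). Dio2, which activates thyroid hormone, was low in both populations, at 4.31 CPM in preadipocyte and 4.3 CPM in progenitor libraries on average. Lhx8, Zfp516 and S100b were lower, with log2 fold changes of -2.21 ± 0.38, -1.19 ± 0.23 and -1.90 ± 0.31.

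Genes written down as beige or white fat markers did not move together, with 6 higher, 5 lower and 3 not called of 14. Tcf21, a white fat progenitor factor, and Wt1 were lower (log2 fold changes -2.83 ± 0.28 and -0.79 ± 0.22), as was Tmem26 (-1.48 ± 0.19). The call of Wt1 ended with library size alone (edgeR adjusted p = 0.191). It also ended without preadipocyte replicate 2 and without progenitor replicate 3 (edgeR adjusted p = 0.0548 and 0.0695). Genes of creatine and calcium cycling were mostly not called (6 of 11). Ckb, the creatine kinase used in a futile cycle of thermogenic fat, was lower, at 32.7, 35.3 and 25.1 CPM in preadipocyte libraries, against 243, 241 and 197 CPM in progenitor libraries. Sln, a regulator of calcium pumps in muscle, was low in both populations and higher in preadipocyte libraries, at 8.36 CPM in preadipocyte and 0.518 CPM in progenitor libraries. Sln is also a heart muscle gene, and heart muscle markers moved the same way.

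Genes of the respiratory chain were higher almost without exception. All 37 nuclear subunits of complex I were higher in preadipocyte libraries (median log2 fold change 1.56). So were all 4 of complex II (1.66), all 10 of complex III with cytochrome c (2.06), all 10 of complex IV (1.8) and 15 of 16 of ATP synthase (1.45). In all, 76 of the 77 nuclear genes on these lists were called higher, against 27.3% of all genes tested. Between the populations 76 did not overlap, against 64.8% of all genes tested. The exception was Atpif1, an inhibitor of ATP synthase listed with its subunits. It was at 59.96, 50.6 and 127 CPM in preadipocyte libraries, highest in replicate 3, against 45.1, 51.4 and 44.55 CPM in progenitor libraries. Atpif1 was called higher with median-ratio size factors (edgeR adjusted p = 0.045), library size alone (edgeR adjusted p = 0.00975) and DESeq2 (adjusted p = 0.0104). So it was without the low-count filter, in the fit of all 12 libraries, and without preadipocyte replicate 1 or 2. The other alternatives did not call it. The 13 subunits encoded in the mitochondrial genome were all higher too, with a median of 1.52 that lies within the range of the nuclear complexes. Processed copies of several subunit and ribosomal protein genes lie elsewhere in the genome, and how the authors' counting shared reads with such pseudogenes is not stated.

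Cycs, the cytochrome c gene, was at 782, 768 and 694 CPM in preadipocyte libraries, against 142, 140.3 and 119 CPM in progenitor libraries. Uqcrfs1, the iron-sulphur subunit of complex III, averaged 609.7 ± 28.8 CPM in preadipocyte and 111 ± 13.4 CPM in progenitor libraries. Cox5a had the largest log2 fold change of the complex IV subunits, 2.76 ± 0.17, and was at 150.1, 138 and 112 CPM in preadipocyte libraries, against 19.25, 21.9 and 17.9 CPM in progenitor libraries. Of complex I, Ndufa10 and Ndufc2 were higher by 2.06 ± 0.14 and 2.07 ± 0.14 on the log2 scale. Sdhd, a membrane anchor of complex II, was at 711, 774 and 639 CPM in preadipocyte libraries, against 180.1, 175 and 149.6 CPM in progenitor libraries. Across these genes the 3 preadipocyte libraries lay within a narrow band above all progenitor libraries.

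Start regions of these genes were searched for the letters of the site of NRF1, a transcription factor known to bind promoters of respiratory genes. The window was the 250 bases before each annotated start, from RefSeq on GRCm38.p6, and 64 of the 77 nuclear subunit genes matched a window. GCGCANGCG, read on both strands, stood in 17 of their 69 windows (24.6%), against 1696 of all 32851 windows (5.16%) and 0 of 36 windows of collagen genes. Mitochondrial ribosomal protein genes held it in 13 of 74 windows (17.6%), genes of fatty acid oxidation in 3 of 17 (17.6%), of G2 and mitosis in 5 of 33 (15.2%), of the TCA cycle in 3 of 26 (11.5%) and of DNA replication in 2 of 33 (6.06%). TNAAGGTCA, letters of the site of the estrogen-related receptors, stood in 2 of the 69 windows (2.90%) and in 1.14% of all windows. A match is a description of the sequence and shows no binding. The 4 stretches below end at the base before the start, begin 20 bases before the match, run 5′ to 3′ along the gene and show the match in capitals, to let the spacing from the start be compared.
Cycs, chr6:50566570-50566650, minus strand: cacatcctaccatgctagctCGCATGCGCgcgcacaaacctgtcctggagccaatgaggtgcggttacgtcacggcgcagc
Sdhd, chr9:50603850-50603948, minus strand: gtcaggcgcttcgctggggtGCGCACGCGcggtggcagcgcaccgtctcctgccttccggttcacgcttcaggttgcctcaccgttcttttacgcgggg
Atp5h, chr11:115419920-115420080, minus strand: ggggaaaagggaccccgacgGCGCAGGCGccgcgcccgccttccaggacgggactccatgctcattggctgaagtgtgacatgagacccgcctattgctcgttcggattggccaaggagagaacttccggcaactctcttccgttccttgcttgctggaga
Atp5k, chr5:108434400-108434469, minus strand: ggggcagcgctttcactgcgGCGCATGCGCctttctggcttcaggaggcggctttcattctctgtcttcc
The match began 61 bases before the start in Cycs, 79 in Sdhd, 141 in Atp5h and 50 in Atp5k, where 2 matches on opposite strands overlapped. Atp5h and Atp5k, subunits of ATP synthase, were higher by 1.59 ± 0.13 and 2.0 ± 0.17 on the log2 scale.

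**Figure D4:**
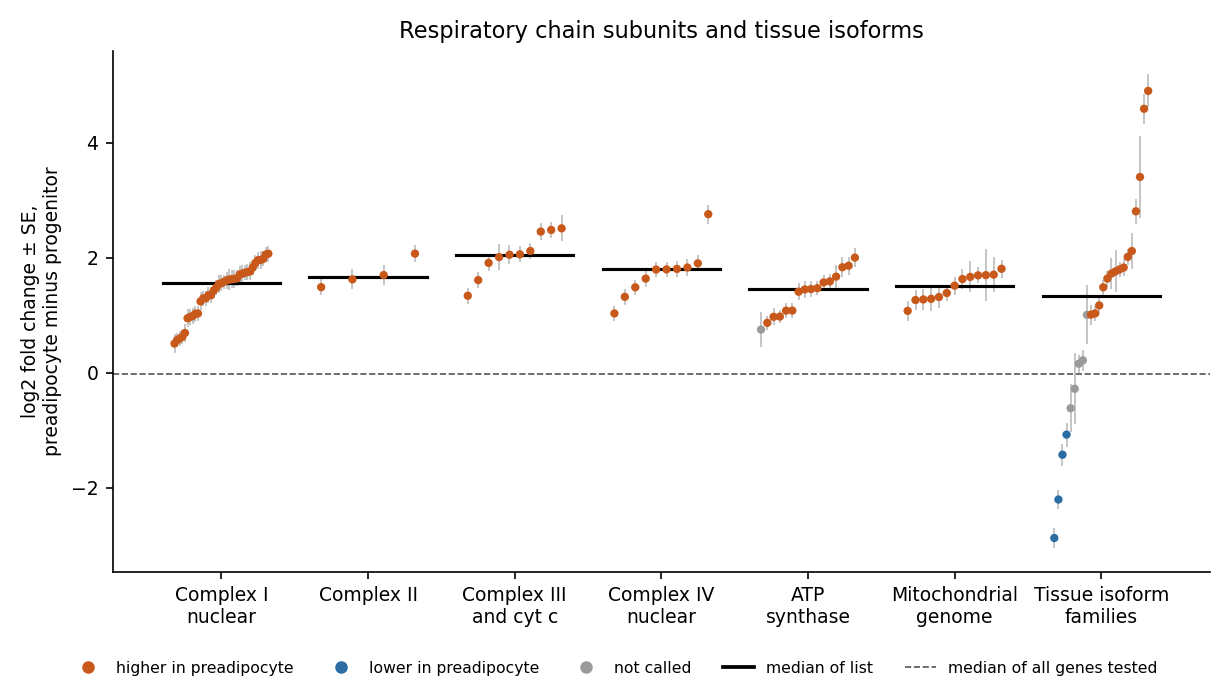
Log2 fold change ± SE (preadipocyte minus progenitor, vertical axis) of each nuclear respiratory chain subunit by complex, of the subunits of the mitochondrial genome, and of tissue isoform families, in rising order within a group. Black bars are medians and the dashed line is the median of all genes tested. The subunits lie above 0, with Atpif1 the 1 not called, while isoform families spread from -2.87 for Ckb to 4.90 for Cox8b.

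Isoforms that replace each other between tissues shifted within families. Cox7a1, the heart and muscle form of a complex IV subunit that brown fat also uses, was at 59.8, 42.5 and 37.4 CPM in preadipocyte libraries, against 2.06, 2.2 and 1.525 CPM in progenitor libraries. Its common counterpart Cox7a2 was higher by less (log2 fold change 1.64 ± 0.14), so that Cox7a1 made up 18.5%, 16.9% and 14.3% of both transcripts per length in preadipocyte replicates 1 to 3 and 2.53%, 2.9% and 2.13% in progenitor replicates 1 to 3. Cox8b took 3.84% ± 0.10 of the Cox8 transcripts in preadipocyte and 0.463% ± 0.13 in progenitor libraries, and Cox8a was still the main form in both. Of the ADP/ATP carriers, Slc25a5 was higher (log2 fold change 2.02 ± 0.14) and Slc25a4 was not called (0.22 ± 0.18, edgeR adjusted p = 0.338), and the share of Slc25a4 was 20.2% ± 3.69 in preadipocyte and 46.8% ± 2.02 in progenitor libraries. The glucose transporter Slc2a4, which insulin moves to the membrane, took 53.1% ± 4.69 of 3 glucose transporter transcripts in preadipocyte and 16.9% ± 2.66 in progenitor libraries, while Slc2a1 was not called (log2 fold change 0.16 ± 0.16). Cpt1a and Cpt1c, forms of the carnitine palmitoyltransferase, and Hk2, a hexokinase, were lower (log2 fold changes -1.42 ± 0.19, -2.20 ± 0.16 and -1.07 ± 0.21). Hk1 was not called, at 19.6, 21.3 and 129 CPM in preadipocyte libraries, highest in replicate 3, and 70.3, 67 and 68.3 CPM in progenitor libraries. Without preadipocyte replicate 3 the log2 fold change of Hk1 was -1.69 (adjusted p = 3.66e-06). Shares are given as a description, without a test.

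**Figure D5:**
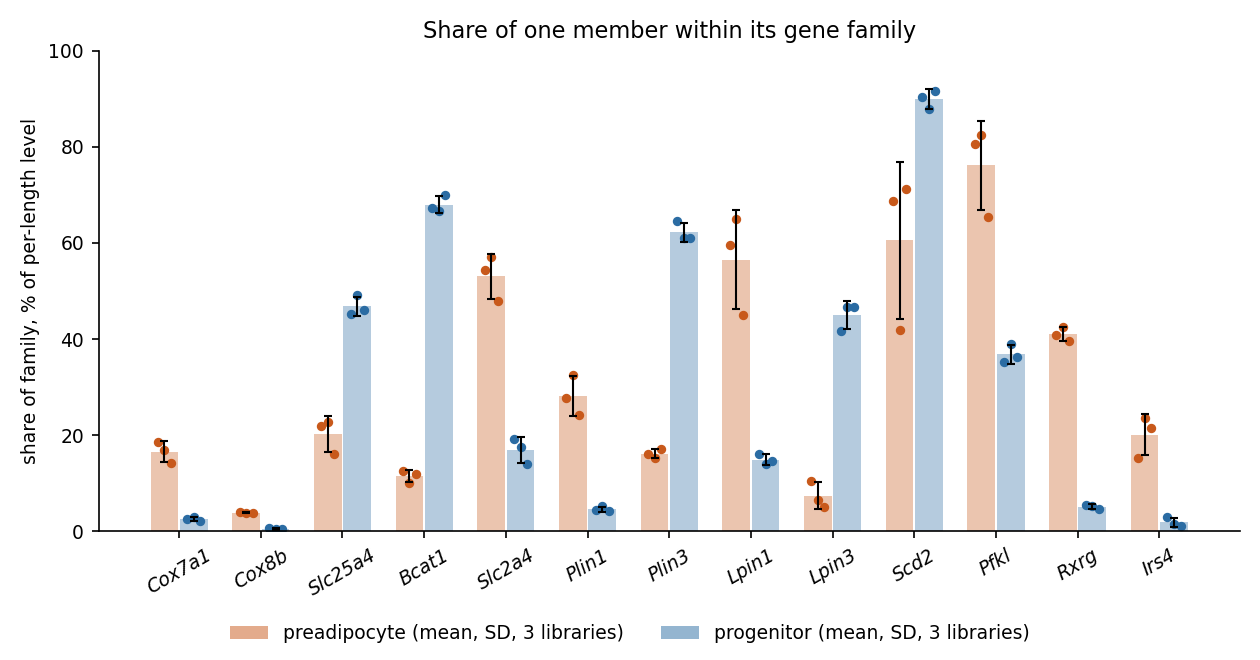
Share of 13 genes in the summed per-length level of their gene family (vertical axis, %), with bars for the mean, error bars for the SD and points for the 3 libraries of each population. Cox7a1, Slc2a4, Plin1, Lpin1, Pfkl, Rxrg and Irs4 take larger shares in preadipocyte libraries, and Bcat1, Plin3, Lpin3, Scd2 and Slc25a4 take smaller ones.

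Fuel oxidation in the mitochondria followed the same direction. All 21 genes of the TCA cycle and pyruvate entry were higher (median 1.78), as were 17 of 19 genes of fatty acid oxidation (1.87), with Cpt1a lower and Eci2 not called. Idh3a, a subunit of the NAD-dependent isocitrate dehydrogenase, was at 1038, 1204 and 884.5 CPM in preadipocyte libraries, against 128, 115 and 92.75 CPM in progenitor libraries. Pcx, pyruvate carboxylase, which refills the cycle and feeds glycerol synthesis, was at 277, 492.5 and 237 CPM in preadipocyte libraries, against 31.2, 35.3 and 24.3 CPM in progenitor libraries. No other gene of the list had a fold change as large as these (log2 fold changes 3.22 ± 0.18 and 3.47 ± 0.29, edgeR adjusted p = 1.93e-06 and 1.49e-05). Acadl and Hadh, enzymes of beta-oxidation, were higher by 2.31 ± 0.14 and 2.24 ± 0.22 on the log2 scale. Breakdown of branched chain amino acids was higher in 16 of 22 genes and lower in 2. At its first step the cytosolic aminotransferase Bcat1 was lower and its mitochondrial counterpart Bcat2 higher, and Bcat1 made up 12.5%, 10.1% and 12% of both transcripts per length in preadipocyte replicates 1 to 3, against 67.3%, 66.6% and 69.9% in progenitor replicates 1 to 3.

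The machinery that builds mitochondria was higher as well. Of 77 mitochondrial ribosomal proteins 76 were higher (median 1.33), and Mrpl33 was not called (log2 fold change 0.13 ± 0.16, edgeR adjusted p = 0.519). Of 33 genes of biogenesis and import 30 were higher and 1, Pprc1, was lower (log2 fold change -0.42 ± 0.13). This call ended with DESeq2 (adjusted p = 0.0637), with library size alone (log2 fold change -0.01, edgeR adjusted p = 0.938) and in 5 of the 6 fits that left out 1 library. Hspd1, the mitochondrial chaperonin, was at 1383, 1577 and 1342 CPM in preadipocyte libraries, against 256, 274.5 and 259.8 CPM in progenitor libraries. Its co-chaperonin Hspe1 was higher by nearly the same ratio (log2 fold change 2.37 ± 0.14 against 2.44 ± 0.13 for Hspd1). Of 13 genes of coenzyme Q synthesis, 9 were higher, led by Coq3 (log2 fold change 2.79 ± 0.17) and Coq8a (2.77 ± 0.24), while Coq8b and Coq10b were lower (-0.80 ± 0.17 and -0.67 ± 0.14), calls that ended with library size alone (edgeR adjusted p = 0.0736 and 0.134). Peroxisome genes were higher in 18 of 25 and lower in 2, with Pex11a, a factor of peroxisome division, at 28.8 ± 5.67 CPM in preadipocyte and 3.3 ± 1.39 CPM in progenitor libraries.

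Glycolysis was higher in 11 of 20 entries and lower in 1. Pfkl, the liver form of phosphofructokinase, was at 311, 433 and 283 CPM in preadipocyte libraries, against 57.8, 64.6 and 48.7 CPM in progenitor libraries, whereas the muscle and platelet forms Pfkm and Pfkp were not called (log2 fold changes 0.23 ± 0.31 and -0.24 ± 0.15). Pfkl made up 76.1% ± 9.34 of the 3 forms per length in preadipocyte and 36.8% ± 1.93 in progenitor libraries. Eno1, an enolase, was higher by 2.0 ± 0.19 on the log2 scale. Pkm, the last enzyme of the route, was not called (log2 fold change -0.03 ± 0.20, edgeR adjusted p = 0.921).

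Transcription factors of adipogenesis were mixed. Of 29 tested, 11 were higher, 7 lower and 11 not called (median 0.40), against 27.3% higher and 29.3% lower among all genes tested. Pparg was at 283, 371 and 217 CPM in preadipocyte libraries, against 59.4, 55.25 and 51.05 CPM in progenitor libraries. Cebpa, its partner late in differentiation, was at 124, 75.6 and 42.25 CPM in preadipocyte libraries, against 15.45, 19.15 and 16.2 CPM in progenitor libraries. Rxrg, a retinoid X receptor that pairs with nuclear receptors, was at 37.3, 37.4 and 23.4 CPM in preadipocyte libraries, against 2.22, 2.27 and 1.59 CPM in progenitor libraries. The 3 genes were higher by 2.39 ± 0.20, 2.25 ± 0.34 and 4.01 ± 0.27 on the log2 scale (edgeR adjusted p = 1.43e-05, 4.39e-04 and 4.44e-06), and in each the lowest preadipocyte library was above the highest progenitor library. Ppara, a nuclear receptor of fat burning, was higher by 2.64 ± 0.25 on the log2 scale. Cebpd, which is induced early in differentiation, was lower, at 76.15, 58.5 and 61.9 CPM in preadipocyte libraries, against 298, 341.5 and 366 CPM in progenitor libraries, and Klf4 and Zfp423 had log2 fold changes of -2.22 ± 0.28 and -1.26 ± 0.19. Cebpb, also induced early, was at 291.5, 201 and 60.1 CPM in preadipocyte libraries, against 5.7, 100.1 and 63.25 CPM in progenitor libraries. Progenitor replicate 1 was far below the other 2 in Cebpb, the populations overlapped and the gene was not called (edgeR adjusted p = 0.103). Without preadipocyte replicate 3 its log2 fold change was 2.17 (adjusted p = 0.0208). Per length, Rxrg made up 41.1% ± 1.46 of the 3 retinoid X receptors in preadipocyte and 5.15% ± 0.516 in progenitor libraries.

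Factors of mesenchymal identity and those known to hold back fat differentiation were lower in 25 of 37 and higher in 4 (median -1.16). Osr1, a zinc finger factor of connective tissue, was at 10.5, 15.25 and 9.83 CPM in preadipocyte libraries, against 174, 185 and 178 CPM in progenitor libraries. Id2, an inhibitor of bHLH factors, Meox2, a homeobox factor, and Prrx1, a mesenchymal homeobox factor, were lower, with log2 fold changes of -2.27 ± 0.13, -2.65 ± 0.18 and -2.05 ± 0.17. Gata2 and Gata3, which in cultured mouse preadipocytes hold back differentiation, were higher, at averages of 9.7 and 1.97 CPM in preadipocyte and 0.424 and 0.182 CPM in progenitor libraries. Both are also used by sympathetic neurons and Gata2 by red cell precursors, and neuronal and red cell markers moved the same way. Gata2 was at 10.5, 10.3 and 8.36 CPM in preadipocyte replicates 1 to 3, and its log2 fold change without replicate 3 was 4.63 (adjusted p = 1.31e-06). Hox genes, which mark position along the body, were lower in 6 (10 without preadipocyte replicate 1) and higher in 1 of 19 tested, and 12 were not called. Of all genes tested 29.3% were lower, a share near that of 6 in 19. Hoxa2, Hoxa3 and Hoxb5 were lower, with log2 fold changes of -1.42 ± 0.24, -1.38 ± 0.29 and -1.42 ± 0.26, all at low levels, and Hoxa9 was higher by 1.01 ± 0.30, with an edgeR adjusted p of 0.0549 without progenitor replicate 1. Hoxa5 was not called (log2 fold change -0.31 ± 0.22).

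Genes of the extracellular matrix were lower. Across 8 lists with 192 distinct genes, from collagens to proteases, 140 were lower, 16 higher and 36 not called, against 29.3% of all genes lower (median log2 fold change -1.64). Collagen chains were lower in 25 of 42 and higher in 6. Col14a1, a collagen that sits on the surface of fibrils, was at 189.9, 175 and 141 CPM in preadipocyte libraries, against 2594, 2305.5 and 2621 CPM in progenitor libraries. Col5a1 and Col5a2, which set fibril width, averaged 619 and 401.5 CPM in preadipocyte and 3964 and 2268 CPM in progenitor libraries. Col6a6 was lower, with a log2 fold change of -2.72 ± 0.18. Basement membrane genes, which surround mature fat cells, were lower in 13 and higher in 2 of 23 (8 lower without progenitor replicate 1), and of those Nid1 was lower (log2 fold change -2.09 ± 0.17) while Col15a1, Col18a1 and Lama4 were not called (0.25 ± 0.34, 0.55 ± 0.25 and -0.48 ± 0.19). Without preadipocyte replicate 3, Col15a1 and Col18a1 were called higher (edgeR adjusted p = 0.0413 and 0.00205). DESeq2 and edgeR with library size alone also called Col18a1 higher (adjusted p = 0.0373 and 0.0119). Lama4 was called lower by limma-voom (adjusted p = 0.0476), and by edgeR with a replicate block or without preadipocyte replicate 2 (adjusted p = 0.0448 and 0.0327).

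Enzymes that process collagen showed the same direction in 26 of 28 genes, with 1, P3h2, higher, a call that ended in 4 of the 6 fits that left out 1 library (edgeR adjusted p = 0.0639 to 0.129). Pcolce2, an enhancer of procollagen cleavage, was at 4.22, 4.93 and 3.12 CPM in preadipocyte libraries, against 128.5, 132 and 119 CPM in progenitor libraries. P4ha2, a subunit of prolyl hydroxylase, was at 25.7, 25.85 and 22 CPM in preadipocyte libraries, against 326, 310.2 and 278 CPM in progenitor libraries. Adamts2, which trims procollagen, was lower, with a log2 fold change of -3.69 ± 0.16. All 17 elastic fibre genes were lower (median -2.64), led by Mfap5 and Mfap4, glycoproteins of microfibrils (log2 fold changes -4.54 ± 0.15 and -3.95 ± 0.16). Efemp1, a fibulin, averaged 27.3 ± 0.453 CPM in preadipocyte and 218 ± 37.45 CPM in progenitor libraries (SD, n = 3). Small leucine-rich proteoglycans, which bind collagen fibrils, were lower in 9 of 12. Bgn, biglycan, was at 282, 271 and 209.6 CPM in preadipocyte libraries, against 1921.5, 1916 and 1868.5 CPM in progenitor libraries, while Kera, keratocan, was higher at a low level (13.4 CPM in preadipocyte and 2.835 CPM in progenitor libraries).

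Among matricellular proteins, 15 of 21 were lower and 3 higher. The thrombospondins moved in opposite directions. Thbs3 was at 30.1, 35.7 and 23.8 CPM in preadipocyte libraries, against 558.5, 524 and 540.2 CPM in progenitor libraries. Thbs4 was at 108.5, 77.55 and 58.4 CPM in preadipocyte libraries, against 2.93, 3.93 and 2.59 CPM in progenitor libraries. Neither gene overlapped between populations, and the log2 fold changes were -4.18 ± 0.18 and 4.69 ± 0.28 (edgeR adjusted p = 7.10e-07 and 2.60e-06). Matrix proteases and their inhibitors were lower in 31 of 39 and higher in 1, Mmp28 (log2 fold change 2.93 ± 0.32). Timp2, an inhibitor of metalloproteinases, was at 157, 198 and 143 CPM in preadipocyte libraries, against 1587, 1852 and 1838 CPM in progenitor libraries. Mmp14, a membrane-bound protease, was lower, with a log2 fold change of -2.50 ± 0.13. Integrins, the receptors for matrix, were lower in 11 of 21 and higher in 2. Itga11, a collagen receptor, was lower (log2 fold change -3.47 ± 0.18) and Itga6, a laminin receptor, was at 52.85, 77.55 and 34 CPM in preadipocyte libraries, against 3.41, 8.27 and 7.82 CPM in progenitor libraries.

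Several matrix genes of cartilage were high in 1 library. Col2a1, the main cartilage collagen, was at 154, 4.99 and 2.65 CPM in preadipocyte replicates 1 to 3, against 0.238, 0.2755 and 0.862 CPM in progenitor libraries, so that preadipocyte replicate 1 held most of it. Its log2 fold change was 6.82 ± 1.68, and 3.04 (adjusted p = 0.00319) without that library. limma-voom did not call it (4.92, adjusted p = 0.162). Col9a3, another cartilage collagen, was at 14.4, 1.81 and 1.94 CPM in preadipocyte replicates 1 to 3 and 5.47, 6.61 and 5.105 CPM in progenitor libraries. It was not called, and without preadipocyte replicate 1 its log2 fold change was -1.57 (adjusted p = 0.00183). Itga4, an integrin of blood cells, was instead high in preadipocyte replicate 3, at 2.35, 2.15 and 44.4 CPM in preadipocyte replicates 1 to 3 and 0.475, 0.8955 and 1.06 CPM in progenitor libraries and had a log2 fold change of 1.5 (adjusted p = 0.00933) without that library. limma-voom did not call Itga4 (adjusted p = 0.148).

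Secreted signals and their modulators were lower in preadipocyte libraries for most pathways. In the Wnt pathway 24 of 42 genes were lower and 7 higher, 4 without progenitor replicate 2 (median -1.14). Sfrp4 and Sfrp2, secreted Wnt antagonists, averaged 8.61 and 19.45 CPM in preadipocyte and 264 and 140.4 CPM in progenitor libraries. Wnt5a, a ligand of the non-canonical branch, was at 30.8, 34 and 22.4 CPM in preadipocyte libraries, against 226, 226 and 240.01 CPM in progenitor libraries. Dkk3, a member of the Dickkopf family, was lower, with a log2 fold change of -4.11 ± 0.18. Wnt2, a canonical ligand, was at 0.374, 0.227 and 0.94155 CPM in preadipocyte libraries, against 31.7, 36.4 and 21.15 CPM in progenitor libraries. Lef1, a transcription factor of the pathway, was higher and averaged 1.62 CPM in preadipocyte and 0.263 CPM in progenitor libraries. Axin2 and Znrf3, feedback inhibitors, averaged 1.92 and 12.4 CPM in preadipocyte and 0.823 and 5.65 CPM in progenitor libraries and were higher by 1.23 ± 0.39 and 1.13 ± 0.34 on the log2 scale (edgeR adjusted p = 0.02235 and 0.0192).

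Of 40 genes of the BMP and TGF-beta pathway, 27 were lower and 6 higher (median -1.34). Gdf10, a ligand of the family, was at 94.9, 113 and 92.6 CPM in preadipocyte libraries, against 760.4, 757 and 806 CPM in progenitor libraries. Bmp3, an atypical BMP, and Fstl1, a secreted glycoprotein, were lower, with log2 fold changes of -4.12 ± 0.20 and -3.08 ± 0.15. Bmp7 averaged 1.22 ± 0.233 CPM in preadipocyte and 27.5 ± 1.54 CPM in progenitor libraries, and its antagonist Chrd, chordin, 3.32 ± 0.769 CPM in preadipocyte and 43.7 ± 3.7 CPM in progenitor libraries. Tgfbr2, the type II receptor of TGF-beta, was lower, with a log2 fold change of -2.52 ± 0.17. The receptor gene Acvr1c, described above, was higher. Gdf15, a stress-induced ligand, was higher (log2 fold change 1.25 ± 0.18). Bmp4 was not called (log2 fold change -0.52 ± 0.25).

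Growth factor pathways were mixed. In the FGF pathway 10 genes were lower, 4 higher and 14 not called of 28, with 7 higher without preadipocyte replicate 3 and 9 with library size alone. Fgf7 and Fgf2, ligands, were lower, with log2 fold changes of -2.81 ± 0.14 and -1.87 ± 0.18. Klb, the co-receptor through which Fgf21 acts on fat cells, was at 49.97, 88.2 and 43 CPM in preadipocyte libraries, against 4.44, 6.61 and 3.845 CPM in progenitor libraries. Fgf10, a ligand known to act on preadipocytes, was not called, at 51.2 CPM in preadipocyte and 38.8 CPM in progenitor libraries. Both PDGF receptors were lower, as was the ligand Pdgfd (log2 fold change -2.44 ± 0.19), whereas the ligands Pdgfa and Pdgfc were higher (1.28 ± 0.34 and 2.39 ± 0.28). Of 20 genes of the insulin and IGF pathway 14 were lower and 2 higher. Igfbp6 and Igfbp7, IGF-binding proteins, were lower, with log2 fold changes of -3.27 ± 0.15 and -2.63 ± 0.16, and Igf1 was at 265, 278 and 257 CPM in preadipocyte libraries, against 850.4, 742 and 994 CPM in progenitor libraries. Irs4, an adaptor of the insulin receptor, was at 68.9, 103.5 and 52.9 CPM in preadipocyte libraries, against 5.625, 5.65 and 3.78 CPM in progenitor libraries, while Irs1, Irs2 and the receptor gene Insr were not called (log2 fold changes -0.02 ± 0.20, 0.10 ± 0.30 and -0.21 ± 0.16).

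Hedgehog genes were lower in 10 of 13 tested and higher in none, with 3 not called. Boc, a co-receptor of the pathway, was at 35.6, 43.3 and 30.8 CPM in preadipocyte libraries, against 187, 171 and 177 CPM in progenitor libraries. Boc and Cdon, another co-receptor, were lower, with log2 fold changes of -2.29 ± 0.16 and -1.82 ± 0.16, and Sufu, a cytosolic inhibitor, was not called (0.04 ± 0.16). Notch genes split, with 4 higher (2 without preadipocyte replicate 1) and 5 lower of 12. The ligand Dll4 and the receptor Notch1 were higher (log2 fold changes 3.41 ± 0.45 and 1.07 ± 0.24), and Notch2, Notch3 and Heyl were lower (-0.90 ± 0.14, -1.35 ± 0.18 and -1.47 ± 0.21). Dll4 is also an endothelial gene, and 11 of 15 endothelial markers moved the same way. In the retinoid pathway 12 of 17 were lower. Aldh1a3, which makes retinoic acid, was at 5.34, 7.82 and 7.06 CPM in preadipocyte libraries, against 101, 77 and 82.15 CPM in progenitor libraries. The receptor Rarg was lower, with a log2 fold change of -2.86 ± 0.31, while Retsat, retinol saturase of fat cells, was higher by 1.33 ± 0.18.

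Guidance cues for axons and vessels were lower in 32 of 51 and higher in 5 (median -1.39). Epha3, an ephrin receptor, was at 8.28, 10.5 and 11.1 CPM in preadipocyte libraries, against 239, 217 and 211 CPM in progenitor libraries. Ntn1, netrin, and Sema3d, a semaphorin, were lower, with log2 fold changes of -4.11 ± 0.18 and -3.63 ± 0.17. Nrp2, a semaphorin and VEGF receptor, was higher instead, at 58.7, 63.1 and 40.02 CPM in preadipocyte libraries, against 14, 14.6 and 16.5 CPM in progenitor libraries. Neuronal markers were higher in the same libraries, as given above.

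Imprinted genes that govern growth were lower in 16 of 19 and higher in 2, with a median of -2.18. Cdkn1c, an inhibitor of the cell cycle, was at 70.3, 58.4 and 58.4 CPM in preadipocyte libraries, against 312, 321 and 337 CPM in progenitor libraries. Mest and Plagl1, members of the same network, averaged 282 and 315 CPM in preadipocyte and 1515 and 1549 CPM in progenitor libraries. H19, an imprinted non-coding RNA, was lower, with a log2 fold change of -2.74 ± 0.30. The 2 genes that were higher were Nnat (log2 fold change 3.68 ± 0.23) and Magel2 (2.63 ± 0.25), and Peg10 was not called (0.40 ± 0.36).

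Genes of cell division were higher. Of 33 genes of DNA replication 31 were higher (median 1.82), and all 36 genes of G2 and mitosis were higher (1.97). Without preadipocyte replicate 3 these counts were 30 and 36, with medians of 1.52 and 1.83. Rrm2, which makes deoxynucleotides, was at 399.85, 558 and 954 CPM in preadipocyte libraries, against 85.6, 83 and 71.8 CPM in progenitor libraries. Uhrf1, which maintains DNA methylation, averaged 281 ± 77.2 CPM in preadipocyte and 56.7 ± 6.29 CPM in progenitor libraries. Bub1b, a spindle checkpoint kinase, was at 114, 169.6 and 131 CPM in preadipocyte libraries, against 35.3, 32.65 and 28.2 CPM in progenitor libraries. Preadipocyte replicate 3, the library with the most red cell RNA, was the highest in Rrm2 and replicate 2 in Bub1b, and in both genes all preadipocyte libraries were above all progenitor libraries. Red cell precursors also divide, and their part in these counts was not tested: red cell markers summed to 1200 CPM in preadipocyte replicate 1 and 1370 CPM in replicate 2. Among inhibitors of the cycle and G1 cyclins, 9 of 18 were higher (5 without progenitor replicate 1) and 4 lower. Cdkn2c, an inhibitor of G1 kinases, and Cdk6, a G1 kinase, were higher (log2 fold changes 2.11 ± 0.17 and 1.45 ± 0.14), Cdkn1c and Btg2 were lower, and Cdkn1a, which encodes p21, was not called (0.04 ± 0.13). E2f1, a driver of S phase genes, was not called either (log2 fold change 0.21 ± 0.24, edgeR adjusted p = 0.484).

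Start regions of the mitotic genes were searched for 2 elements known from such promoters, the CCAAT box and the cell cycle homology region TTTGAA, both read on both strands. RefSeq windows matched 31 of the 36 genes. CCAAT stood in 26 of 33 windows (78.8%), against 33.8% of all 32851 windows, and TTTGAA in 12 of 33 (36.4%), against 16%. Both stood together in 11 of 33 windows (33.3%) and in 5.55% of all. Windows of DNA replication genes held CCAAT in 21 of 33 cases (63.6%) and TTTGAA in 5 of 33 (15.2%). The 4 stretches below again end at the base before the start and show the matches in capitals, with ATTGG and TTCAAA being the same letters on the opposite strand. They show how many boxes a window can hold.
Cdc20, chr4:118437344-118437416, minus strand: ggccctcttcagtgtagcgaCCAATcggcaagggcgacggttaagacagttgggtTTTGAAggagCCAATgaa
Kif11, chr19:37376317-37376381, plus strand: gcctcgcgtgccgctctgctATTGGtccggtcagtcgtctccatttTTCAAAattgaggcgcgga
Ccnb2, chr9:70421555-70421741, minus strand: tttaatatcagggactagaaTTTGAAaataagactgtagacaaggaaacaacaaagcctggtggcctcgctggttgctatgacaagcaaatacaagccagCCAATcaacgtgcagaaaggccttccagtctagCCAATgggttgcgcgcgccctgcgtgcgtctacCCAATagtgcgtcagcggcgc
Ect2, chr3:27153855-27154012, minus strand: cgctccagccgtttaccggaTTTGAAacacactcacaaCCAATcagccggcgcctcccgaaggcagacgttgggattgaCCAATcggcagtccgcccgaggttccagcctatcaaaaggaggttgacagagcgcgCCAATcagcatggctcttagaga
The TTTGAA match began 18 bases before the start in Cdc20, 19 in Kif11, 138 in Ect2 and 167 in Ccnb2, and Ccnb2 and Ect2 held 3 CCAAT boxes each. Cdc20, an activator of anaphase, averaged 176 ± 23.45 CPM in preadipocyte and 50.9 ± 6.905 CPM in progenitor libraries. Kif11, a spindle motor, Ccnb2, a mitotic cyclin, and Ect2, a cytokinesis factor, were higher by 2.16 ± 0.21, 2.11 ± 0.20 and 1.88 ± 0.19 on the log2 scale.

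Cytosolic ribosomal proteins were higher in 75 of 77 genes, with a median of 1.01 and a narrow spread. Rpl5 was at 517, 444 and 590.1 CPM in preadipocyte libraries, against 195, 213 and 178 CPM in progenitor libraries. Rpl5 and Rplp2 were higher by 1.40 ± 0.15 and 1.47 ± 0.15 on the log2 scale, and Rps27 and Rpl24 were not called (0.30 ± 0.17 and -0.25 ± 0.25).

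Immune and stress genes were mostly lower. Complement genes were lower in 10 of 20 and higher in 2. Serping1, an inhibitor of the first complement step, was at 168, 149 and 149.5 CPM in preadipocyte libraries, against 2395, 2235 and 2294 CPM in progenitor libraries. C1ra and C1s1, proteases of that step, were lower, with log2 fold changes of -2.76 ± 0.15 and -2.47 ± 0.16, and C3, the central component, was not called (-0.49 ± 0.24, edgeR adjusted p = 0.112). No chemokine or interleukin of 27 tested was higher and 16 were lower. Il33, an alarmin of fat stroma, was at 35.9, 40.1 and 44.3 CPM in preadipocyte libraries, against 484, 442 and 545 CPM in progenitor libraries. Cxcl12 and Ccl7, chemokines, were lower, with log2 fold changes of -1.74 ± 0.14 and -2.60 ± 0.17. Interferon response genes were lower in 13 of 17 and higher in 2. Ifitm3, which blocks virus entry, was lower, with a log2 fold change of -1.92 ± 0.14, whereas Rsad2, an antiviral enzyme, was high in preadipocyte replicate 3, at 2.83, 7.65 and 68.7 CPM in preadipocyte replicates 1 to 3, against 1.82, 0.827 and 1.86 CPM in progenitor libraries. Without that library the log2 fold change of Rsad2 was 1.86 (adjusted p = 0.00568), and limma-voom did not call it with all libraries (adjusted p = 0.108). Immediate early and stress genes, which respond to handling of tissue, were lower in 16 of 20. Nr4a2, an orphan nuclear receptor induced early, was at 39.8, 38.55 and 38.6 CPM in preadipocyte libraries, against 189.98, 198 and 229.8 CPM in progenitor libraries, and Hspa1a, a heat shock protein, was lower, with a log2 fold change of -1.71 ± 0.15. What the digestion contributed to these levels was not tested.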

How the data were processed

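Poly(A) RNA of 6 libraries was compared, 3 per population, grouped by their titles. The authors deposited whole-number counts per gene and library for 36512 genes, with no scaling, and these counts were tested. The submitters' processing notes name STAR 2.5.2a, DESeq2 1.26.0 and the mm10 build. Which tool counted the reads, with which annotation, and whether it used strand is not given in the sources used here. Because the reads went to whole-number gene counts, reads that fit several genes may have been dropped or split, which bears on genes with near-identical copies.

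Gene names, positions and exon lengths came from GENCODE M21 on mm10. Genes were filtered with filterByExpr over the 6 libraries, leaving 17005 that held 99.48% to 99.80% of the counts, and were scaled by TMM. The test was edgeR's quasi-likelihood F test (edgeR 4.0.16 on R 4.3.3, glmQLFit with glmQLFTest, two-sided, Benjamini-Hochberg adjustment over all genes tested, calls at 0.05). The SE is the one implied by the F statistic. The common biological coefficient of variation was 0.236. Per-length shares used counts per exon length scaled over the genes tested. No 2 replicates were the same library, with a chi-square per degree of freedom of 8.33 to 70.9 between replicates. Totals of 14778738 to 17123109 counts mean that a count of 0 allows up to 0.175 to 0.203 CPM (3 counts), which covers counting error only.

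The comparison and the 64 gene lists were chosen with earlier results of these data known. Named were the 10 largest fold changes in each direction that passed a mean log2 CPM of 4 without overlap between populations and were not predicted genes, up to 6 members of each list with the smallest p and up to 3 against its majority, all isoform family members, list members that were not called, and 11 further genes (Pparg, Cebpa, Pdgfra, Pi16, Dpp4, Ly6a, Ucp1, Adipoq, Prdm16, Ebf2 and Dlk1). Of 686 genes so named, 228 overlap exons of other genes. Some of the genes so named are not reported here. Dgat2, Slc25a1, Acacb, Scd1, Lpl, Lep, Wnt2, Axin2, Znrf3, Tgfbr2, H19 and the genes of the printed promoters were chosen after their values were seen. Promoter sequences are RefSeq's.

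Counts were simulated for 17005 genes around a mean shared by both populations, with 100 genes altered 2-fold and 100 altered 4-fold. The test recovered 35 and 86 of these, and 12 of its 133 calls were false. Far more genes, 9614 of 17005, were called in the data, so these rates cannot be carried over to the comparison itself. Alternatives were edgeR with median-ratio size factors, edgeR with library size alone, DESeq2 1.42.0, limma-voom (limma 3.58.1), the fit of all 12 libraries, no filter on low counts, a minimum of 5 CPM in 3 libraries, a replicate block, protein-coding genes only, and leaving out each library.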

Additional observations from a re-analysis of the deposited data

How the results depend on the processing

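The count of genes that were lower went to 3310 with library size alone, and every other alternative kept the counts of genes higher and lower within 1.5 times those of all 6 libraries. DESeq2 called 4645 genes higher and 4560 lower, limma-voom 4413 and 5075. Leaving out 1 library gave 8070 to 9950 genes in all, 3927 to 4918 higher and 4132 to 5032 lower. With library size alone, list counts moved to 10 higher for cholesterol synthesis, 5 higher for creatine and calcium cycling, 8 lower for basement membrane and 5 higher for skeletal and heart muscle markers, which had 7 higher with all 12 libraries. With at least 5 CPM in 3 libraries, 3 Hox genes, 6 FGF genes and 1 white blood cell marker were lower, where fewer genes were tested. Red blood cell markers were called higher for 4 genes by limma-voom and 1 by DESeq2, which gave no adjusted p for the other 9. Leaving out 1 library gave 5 to 10 Hox genes lower, 8 to 12 basement membrane genes lower, 5 to 9 cell cycle inhibitors and G1 cyclins higher, 2 to 4 white blood cell markers lower, 3 to 10 mesothelial markers lower and 3 to 5 muscle markers higher. Msmo1 changed sign with library size alone (0.39), Col9a3 and Comp without preadipocyte replicate 1, and Epb42 without preadipocyte replicate 3. Leaving out 1 library gave log2 fold changes of -1.57 to 0.55 for Col9a3, -1.74 to 1.2 for Comp and -0.98 to 3.28 for Epb42. The cause was not tested. Whether libraries with the same replicate number belong together is not stated. The deviations of same-numbered libraries correlated at -0.0811, 0.0707 and 0.112, and those of differently numbered libraries at -0.137 to 0.0906. With 3 libraries per population, these values cannot decide whether the samples are paired. With the number as a replicate block, 4429 genes were higher and 4903 lower. Of 686 named genes, library size alone ended the call of 11 and made that of 66, limma-voom 13 and 11, and leaving out 1 library ended that of 3 to 12. In the direction with fewer calls, leaving out 1 library gave 2 to 5 committed preadipocyte markers higher, 2 to 5 cholesterol genes lower, 4 to 7 Wnt genes higher, 3 to 7 FGF genes higher, 2 to 5 Notch genes higher, 0 to 3 Hox genes higher, 0 to 4 basement membrane genes higher, 2 to 4 complement genes higher, and 0 or 1 Hedgehog gene and 0 or 1 chemokine higher. Genes at low counts, such as Lep, Wnt2 and Lef1, are limited by depth.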
